A study of Mus musculus with 4 samples.

Results

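The interferon-stimulated genes described here are 39 mouse genes that interferons are known to switch on, taken as a list by name and read in peak lists of Sub1, also called PC4, a chromatin-bound transcriptional coactivator. All 39 of 39 were found in the RefSeq gene table of build GRCm38.p6 (mm10), 37 as protein-coding genes and Mx1 and Mx2 as transcribed pseudogenes, and they were set against 21887 protein-coding genes. A gene was counted as carrying Sub1 where a peak overlapped its body, extended by 2 kb at both ends, by at least 1 bp. Sub1 was mapped by CUT&Tag, in which an antibody steers a transposase to the DNA that a protein occupies, in 2 libraries of hematopoietic stem cells (HSC 1 and HSC 2) and 2 of leukemia stem cells (LSC 1 and LSC 2). The HSCs were sorted from bone marrow as CD48-CD150+LSK cells of Nup214fl/+ mice. The LSCs were sorted as Lin-, Sca-1-, c-Kit+, CD16/32+ and CD34+ cells of Nup214fl/+ mice whose leukemia was driven by the MLL-AF9 fusion. Both groups thus carry 1 floxed and 1 normal Nup214 allele, and the labels name no Cre driver. The labelled cell type is hematopoietic stem cell for all 4 samples, so group was taken from the sample titles and the sorting scheme. The labels give neither the age of the mice nor whether replicate libraries stem from different animals, so differences between them may be technical.

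As background, type I interferons bind a paired receptor whose Jak1 and Tyk2 kinases phosphorylate Stat factors, among them Stat2, and these join Irf9 to bind the interferon-stimulated response element (ISRE) near the starts of target genes. The targets include RNA sensors that start a new round of interferon production, the Irf and Stat factors themselves, antiviral effectors, and modifiers of proteins that also damp the response. Stem cells are known to hold part of this programme at a constant low level, and interferon can push quiescent HSCs into division.

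The libraries differ in kind, which touches every value that follows. The deposited lists held 115881 peaks in HSC 1, 235680 in HSC 2, 41097 in LSC 1 and 34185 in LSC 2. The authors' fold, which is the signal at a peak's summit over the background of its own library, also had another spread. The 1000th peak, by -log10 p, had a fold of 54.8 in HSC 1 and 76.6 in HSC 2, but 215 in LSC 1 and 158 in LSC 2. Levels of fold were therefore not compared as amounts of Sub1, and 2 other measures were used. Equal-sized lists kept the 34185 peaks with the highest -log10 p in each library. The place of a gene is the percentile of its strongest peak among the 21887 protein-coding genes in such a list, so that 100 is the strongest, and a gene with no peak has place 0. A place says where a gene stands within its own library. The lowest place of a gene with a peak was well above 0, and it differed between libraries with the share of genes that had one. With 2 libraries against 2 the exact permutation test, two-sided, cannot go below p = 0.33, so no single gene could pass a test, and what is given is whether the groups overlap.

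The genes of the sorting markers were read in the same way. Ly6a, which encodes Sca-1, had places 46.2 and 43.6 in HSCs and no peak in either LSC list. Those HSC places were close to the lowest that a gene with a peak could have. Slamf1, which encodes CD150, had 1 and 7 peaks in the deposited HSC lists, none of which reached the equal-sized lists, and no peak in LSCs. Cd34 was at 0 in both HSC libraries, where it had 1 and 6 peaks in the deposited lists but none in the equal-sized lists. Its places were 75.3 and 61.6 in LSC 1 and LSC 2. Ly6a thus stood higher in HSCs, the group sorted for Sca-1, and Cd34 stood higher in LSCs, the group sorted for its product. The stated HSC sort did not use the product of Cd34. Slamf1 did not differ by place, and its peaks came only from the longer HSC lists as deposited. Fcgr3 encodes part of the CD16/32 signal that marked the sorted LSCs. Its places went against that sort, at 99.5 and 97.1 in HSCs and 75.0 and 81.7 in LSCs. Fcgr2b, the other gene listed for that signal, overlapped between groups, at 73.3 and 88.0 against 71.9 and 82.8. Cd48, whose product the HSC sort excluded, stood higher in LSCs, at 64.3 and 63.7 in HSCs and 75.4 and 82.2 in LSCs. Kit stood higher in the LSC libraries.

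Promoters of 5 members are printed because they show the element through which interferon acts on these genes, in 4 genes whose place was higher in HSCs and in Eif2ak2, whose place was not. Each is the RefSeq window from 250 bases before to 50 bases after an annotated start on build GRCm38.p6, given 5′ to 3′ on the strand of the gene. Capitals mark the ISRE core, which was searched as GAAA, any 2 bases, then GAAA, on both strands. Ifitm3 lies at chr7:141010695-141010994 on the minus strand, Oas3 at chr5:120777610-120777909 on the minus strand, Rsad2 at chr12:26456403-26456702 on the minus strand, Ifit1 at chr19:34640639-34640938 on the plus strand and Eif2ak2 at chr17:78882523-78882822 on the minus strand.
Ifitm3: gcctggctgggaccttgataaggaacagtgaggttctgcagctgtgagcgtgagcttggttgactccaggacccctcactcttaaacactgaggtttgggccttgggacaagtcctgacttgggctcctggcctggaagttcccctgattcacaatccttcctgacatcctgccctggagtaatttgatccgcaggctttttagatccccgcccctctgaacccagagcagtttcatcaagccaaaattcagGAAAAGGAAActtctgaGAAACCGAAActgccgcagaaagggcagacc
Oas3: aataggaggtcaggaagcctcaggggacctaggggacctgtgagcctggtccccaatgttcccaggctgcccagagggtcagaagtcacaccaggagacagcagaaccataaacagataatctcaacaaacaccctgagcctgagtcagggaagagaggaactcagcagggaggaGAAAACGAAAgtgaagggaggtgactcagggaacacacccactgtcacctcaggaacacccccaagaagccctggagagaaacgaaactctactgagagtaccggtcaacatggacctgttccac
Rsad2: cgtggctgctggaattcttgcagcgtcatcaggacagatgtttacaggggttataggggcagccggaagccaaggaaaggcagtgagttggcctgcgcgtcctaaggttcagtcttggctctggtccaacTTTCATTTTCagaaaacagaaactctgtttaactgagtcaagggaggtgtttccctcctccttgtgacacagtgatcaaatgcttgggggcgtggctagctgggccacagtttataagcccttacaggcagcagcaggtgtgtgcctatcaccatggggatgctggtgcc
Ifit1: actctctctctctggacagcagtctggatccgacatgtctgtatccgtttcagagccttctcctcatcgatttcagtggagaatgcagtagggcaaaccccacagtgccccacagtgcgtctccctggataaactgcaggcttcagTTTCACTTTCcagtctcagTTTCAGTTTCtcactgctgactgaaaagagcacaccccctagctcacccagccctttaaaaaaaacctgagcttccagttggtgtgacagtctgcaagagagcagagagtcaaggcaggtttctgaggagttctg
Eif2ak2: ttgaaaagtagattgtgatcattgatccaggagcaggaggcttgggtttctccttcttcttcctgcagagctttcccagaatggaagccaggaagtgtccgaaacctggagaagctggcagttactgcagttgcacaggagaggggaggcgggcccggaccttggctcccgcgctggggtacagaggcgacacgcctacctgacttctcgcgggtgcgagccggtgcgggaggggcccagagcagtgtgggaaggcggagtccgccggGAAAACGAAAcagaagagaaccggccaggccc
Ifitm3 and Ifit1 hold 2 cores each and the others hold 1. In Ifitm3 and Eif2ak2 the core lies just after the annotated start. In Oas3, Rsad2 and Ifit1 it lies before it, at positions -75, -120, and -104 and -85 from the start.

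In the full lists Sub1 peaks were present at nearly all interferon-stimulated genes in both cell types, while among the strongest peaks they were present at more of them in HSCs. With the 8546 strongest peaks of each library, 35 members had a peak in HSC 1, 35 in HSC 2, 18 in LSC 1 and 22 in LSC 2, where 39.9%, 39.1%, 42.9% and 42.9% of genes had one, and 13 members had one in both HSC lists and no LSC list, against 0.991% of genes. In the deposited lists 38 of the 39 members had a peak in HSC 1, where 69.7% of protein-coding genes had one. The count was 39 in HSC 2 (83.8% of genes), 36 in LSC 1 (62.4% of genes) and 35 in LSC 2 (58.0% of genes). A peak in all 4 libraries was found at 35 members, against 56.1% of genes. In the equal-sized lists the counts were 38 in HSC 1 (54.2% of genes), 37 in HSC 2 (56.7%), 36 in LSC 1 (60.5%) and 35 in LSC 2 (58.0%), and 34 members had a peak in all 4 against 50.1% of genes. Peaks in both HSC lists with none in the LSC lists were limited to Rtp4 and Ifitm1, a count of 2 in the deposited lists, where 7.85% of genes behaved so, and the same count of 2 in the equal-sized lists, where 0.471% did. The reverse, peaks in LSCs alone, was found for no member in the deposited lists (0.0777% of genes) or in the equal-sized lists (2.49% of genes).

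The place in the gene order separated the groups for most members. Both HSC libraries stood above both LSC libraries for 32 of 39 members, an order found for 13.2% of protein-coding genes. The opposite order, both LSC above both HSC, was found for 0 members and for 15.5% of genes. Among the 34 members with a peak in all 4 equal-sized lists the counts were 29 and 0, while 24.0% of such genes stood higher in HSCs and 23.0% higher in LSCs. The median place of the 39 members was 82.1 in HSC 1, 83.0 in HSC 2, 55.5 in LSC 1 and 59.6 in LSC 2, where the median of all protein-coding genes is 50.0 in each. Genes with a peak in all 4 lists had a median place of 74.9 in each library, and the 34 members with one had 85.9, 87.7, 58.2 and 62.6. These members thus lay above the usual place of such genes in HSCs and below it in LSCs.

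Some of the 32 members were separated by very little. Requiring a gap of at least 10 percentile points between the lowest HSC and the highest LSC place, a limit chosen after the values were seen, left 25 of 39 members, against 2.85% of genes. With the groups exchanged the same gap was found for 0 members and for 3.91% of genes. The plot of place differences shows the same for the members with a peak in all 4 lists. Their median difference between the mean HSC and the mean LSC place was 20.5 points, against -0.4 for all 10955 genes with such peaks. Of those genes 90% lay between -13.4 and 15.5 points, and 23 of the 34 members lay above that range.

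**Figure D1:**
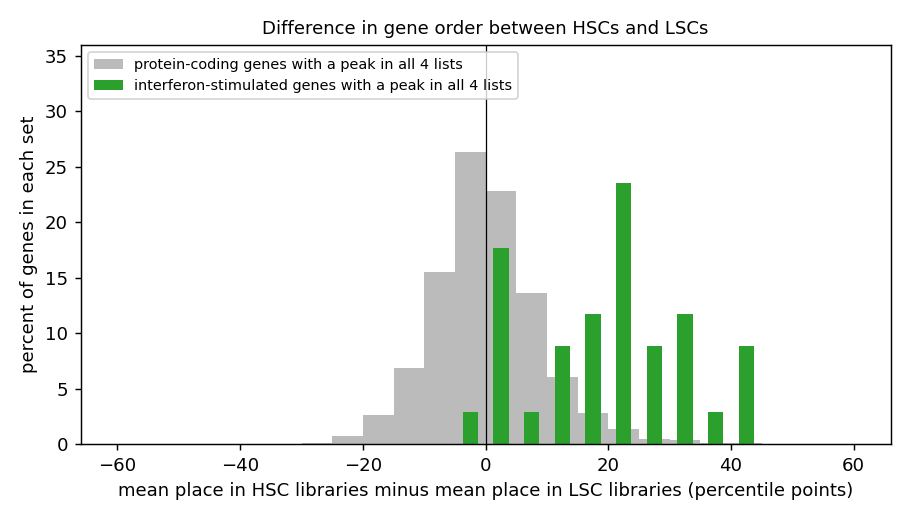
Difference in place between HSCs and LSCs. The x axis is the mean place of a gene in the 2 HSC libraries minus its mean place in the 2 LSC libraries, in percentile points, and the y axis is the percent of genes in each 5-point bin. Grey bars are the 10955 protein-coding genes with a peak in all 4 equal-sized lists, centred near 0, and green bars are the 34 interferon-stimulated genes among them, most of which lie between 10 and 45 points.

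The fold and the width of the strongest peak describe the same genes without ranking. Among genes with a peak in all 4 deposited lists, 83.7% had a higher fold in both LSC than in both HSC libraries, and 14 of 35 members did. The reverse held for 4.25% of genes and for 10 of 35 members, namely Cxcl10, Ifi27, Ifit1, Ifitm3, Mx1, Oas2, Oas3, Oasl2, Rsad2 and Zbp1. The HSC peaks counted here for Ifi27 overlapped the neighbour Ifi27l2a and not Ifi27 itself. The HSC peaks that met its LSC peaks within the gene had folds of 8.6 and 10.3, against 20.9 and 12.4 in LSCs. The strongest Cxcl10 peak also overlapped the neighbour Art3 in all 4 libraries, and its folds were low, at 9.58, 11.0, 6.85 and 6.91. In HSC 1 it did not overlap the strongest Cxcl10 peaks of LSCs, and the HSC 1 peak that did had a fold of 8.6. The median fold of the 35 members was 42.5 in HSC 1, 58.7 in HSC 2, 59.2 in LSC 1 and 52.0 in LSC 2, where that of all such genes was 29.5, 37.4, 115 and 77.2. The members therefore had no general gain of fold in HSCs, and their median fold was above that of all such genes in HSCs and below it in LSCs. The strongest peak was wider in both HSC than in both LSC libraries for 19 of 35 members, against 11.0% of genes, and wider in both LSC libraries for 3 members, against 37.5% of genes. Peaks covered 25.6% and 30.4% of the summed member windows in HSCs and 11.5% and 13.3% in LSCs, where windows of all protein-coding genes were covered to 6.01%, 10.2%, 4.16% and 4.6%. Member windows were shorter on average than those of all genes, and these shares were not matched for length.

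A list of 15 genes of mature neutrophils, a cell that neither sort was meant to hold, moved in the same way. Of these, 14 stood higher in both HSC than in both LSC libraries, and the exception was Ly6g, at 52.4 in HSC 1 and 0 in the other libraries. In HSC 2, Ly6g had 4 peaks in the deposited list, none of which reached the equal-sized list. The summed place of the 15 genes was 1035 to 1135 in the HSC libraries and 586 to 724 in the LSC libraries. S100a8 had places 87.0, 88.9, 51.5 and 62.5, and Retnlg had no peak in either LSC list. Of the neutrophil markers, 15 and 14 had a peak in the equal-sized HSC lists, and 12 and 13 in those of LSCs. The part of such cells in the order of the interferon-stimulated genes was not tested.

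The RNA sensors stood higher in HSCs for 4 of 5 genes, with median places of 74.0, 75.3, 55.5 and 59.5 in HSC 1, HSC 2, LSC 1 and LSC 2. Ddx58, which encodes RIG-I, had places 68.7 and 82.2 in HSCs and 52.5 and 56.5 in LSCs. Ifih1, which encodes MDA5, had 79.1 and 77.8 against 60.7 and 59.5, so the libraries of each group lay close together. Dhx58, which encodes their relative LGP2, had 86.0 and 75.3 against 55.5 and 62.8. Zbp1, a sensor of left-handed nucleic acids that can trigger necroptosis, had 65.5 and 72.6 against 49.2 and 50.0. The groups overlapped for Eif2ak2, which encodes the kinase PKR that halts translation. Its places were 74.0 and 69.5 in HSCs and 77.8 and 73.7 in LSCs, and its LSC peaks had folds of 135 and 82.3 against 31.2 and 34.5. Its strongest summit lay within 80 bp in all 4 libraries, close to the ISRE core printed above. That peak also overlapped the neighbouring gene Gm26637 in all 4 libraries, and its summit lay nearest to Gm26637 in HSC 2, LSC 1 and LSC 2. The strongest peak of Dhx58 likewise overlapped its neighbour Kat2a in all 4 libraries.

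Of the 4 transcription factors of the pathway, 3 stood higher in HSCs, and these genes had high places in both groups. The median was 91.9 and 90.5 in HSCs and 79.1 and 79.0 in LSCs. Irf1 had places 93.6 and 97.9 against 77.1 and 79.1. Irf9, the DNA-binding partner of Stat2, had 95.5 and 94.5 against 82.0 and 79.0, and its strongest peak also overlapped the neighbouring gene Rnf31 in all 4 libraries. Irf7, the factor that amplifies interferon alpha production, had 90.3 and 83.0 against 68.4 and 63.0. Stat2 overlapped between groups, with 80.4 and 86.4 in HSCs and 81.2 and 84.4 in LSCs, so both LSC values lay within the HSC range. The strongest peak of Stat2 also overlapped the neighbouring gene Apof in all 4 libraries.

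**Figure D2:**
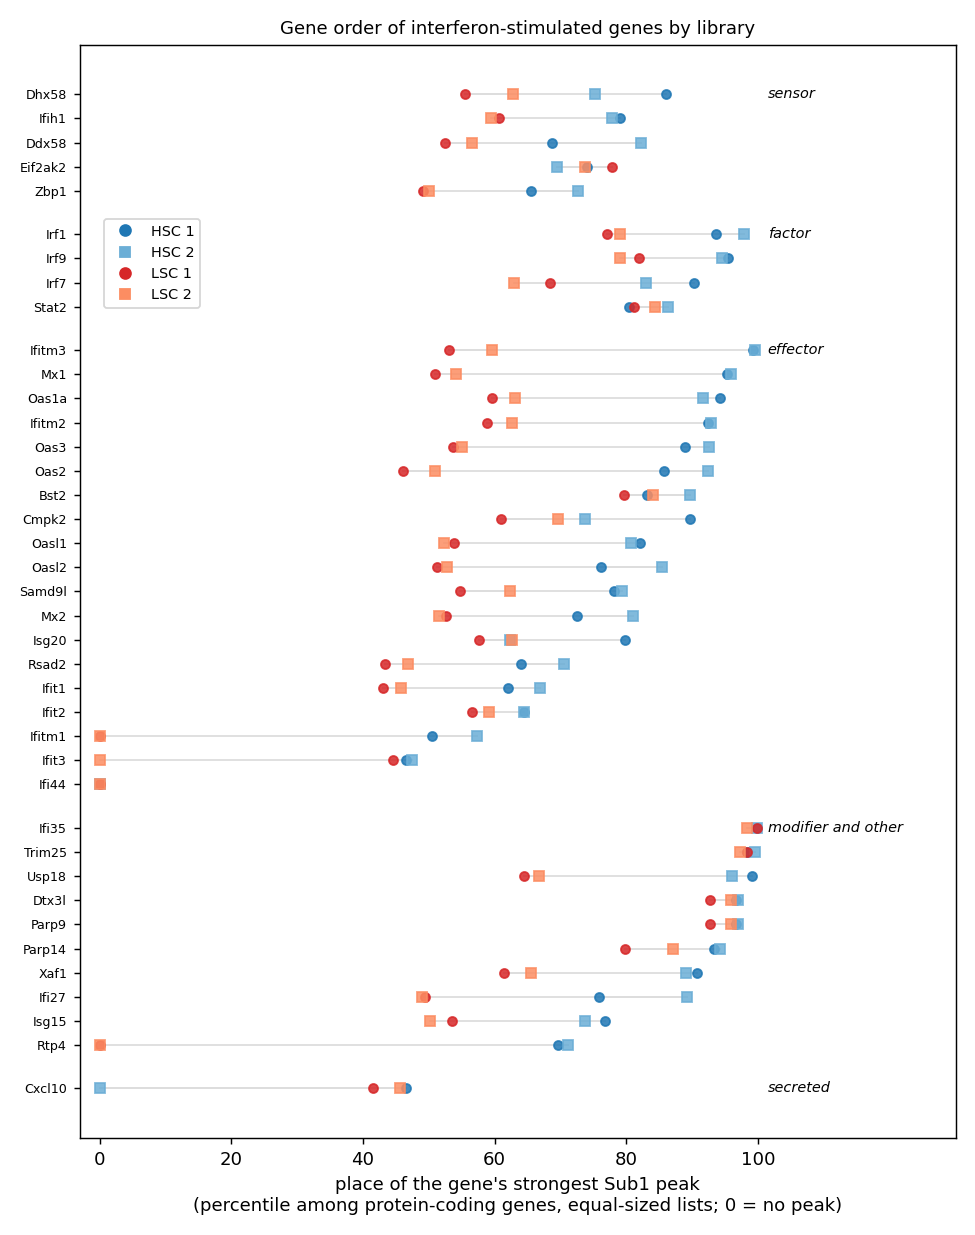
Place of each interferon-stimulated gene in each library. Each row is a gene, grouped by role, and the x axis is the percentile of its strongest Sub1 peak among protein-coding genes in the equal-sized lists (0, no peak). Blue marks are the HSC libraries and red or orange marks the LSC libraries, and blue lies to the right in 32 of 39 rows, with Ifitm3 and Mx1 among the widest gaps.

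The antiviral effectors held many of the wide gaps, with 16 of 19 higher in HSCs and median places of 79.8, 80.7, 53.1 and 54.1. Ifitm3 encodes a membrane protein that blocks viral entry and is known to be expressed in stem cells without interferon. Its places were 99.3 and 99.5 in HSCs and 53.1 and 59.6 in LSCs, or 99.4 ± 0.142 against 56.4 ± 4.6 (mean and SD, n = 2 each). The HSC values are nearly the same and lie at the top of the gene order, far from both LSC values. Its strongest peak had folds of 82.5, 128, 37.5 and 43.8 and spanned 12414, 14256, 1347 and 2917 bp. In both HSC libraries that peak also overlapped the neighbouring gene Ifitm6, while in the LSC libraries Ifitm6 lay under a separate peak. Ifitm2, in the same cluster on the far side of Ifitm1, had places 92.4 and 92.8 against 58.8 and 62.6. Its fold overlapped between groups, at 52.6 and 74.0 against 64.6 and 52.0, so its groups were separated by place and not by fold, while its strongest peak was wider in HSCs, at 4769 and 7667 bp against 2743 and 3025 bp. Ifitm1 had places 50.5 and 57.3 in HSCs and no peak in either LSC list.

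Mx1 and Mx2, whose proteins are dynamin-like GTPases against viruses, are annotated as pseudogenes in the reference strain. Mx1 had places 95.3, 95.9, 50.9 and 54.1, or 95.6 ± 0.375 in HSCs and 52.5 ± 2.29 in LSCs (mean and SD, n = 2 each). Its folds of 59.2 and 87.2 in HSCs were also higher than those of 27.4 and 27.6 in LSCs. Mx2 had places 72.5 and 81.0 against 52.6 and 51.6. Neither Mx1 nor Mx2 overlapped between the groups.

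The Oas genes encode synthetases of 2'-5'-linked oligoadenylate, which activates the nuclease RNase L. Oas2 had places 85.8 and 92.4 in HSCs and 46.1 and 50.9 in LSCs, with folds of 42.5, 73.0, 11.9 and 17.6. Oas3 had places 88.9 and 92.5 against 53.7 and 55.0, with folds of 46.7, 73.4, 40.2 and 30.5. Oas1a had places 94.2 and 91.7 against 59.6 and 63.1, with folds of 56.2, 70.9, 68.5 and 53.1. All 3 genes were separated by place, and Oas2 and Oas3 by fold as well. The related Oasl1 and Oasl2 had places of 82.1 and 80.7 against 53.9 and 52.3, and of 76.1 and 85.4 against 51.2 and 52.8.

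The Ifit genes, whose proteins bind foreign RNA ends, stood in the lower part of the effectors in HSCs. Ifit1 had places 62.1 and 66.9 against 43.0 and 45.8, and folds of 21.4, 31.6, 8.12 and 7.09. Its strongest peak also overlapped Ifit1bl1 in all 4 libraries, and the summit lay nearest to Ifit1bl1 or Ifit1bl2 in HSC 2, LSC 1 and LSC 2. With each peak given to its nearest gene alone, Ifit1 no longer stood higher in HSCs by place. In HSC 1 the strongest peak lay 1156 bp inside the gene, and the promoter peak had a fold of 13.5. Among promoters Ifit1 had 57.6, 71.0, 49.0 and 51.2. Ifit2 had places 64.5 and 64.4 against 56.6 and 59.1, a narrow gap. Ifit3 had 46.6 and 47.4 against 44.5 in LSC 1 and no peak in LSC 2. Its separation rests on 2.1 points between the nearest libraries. In the equal-sized lists 54.2% of genes had a peak in HSC 1 and 60.5% in LSC 1, so places of called genes began higher in HSC 1. Any gene with a peak in HSC 1 stood above the LSC 1 place of Ifit3. Rsad2, which encodes the antiviral protein viperin, had places 64.0 and 70.6 against 43.4 and 46.9, with folds of 22.8, 35.8, 8.3 and 8.36. Its neighbour Cmpk2, a nucleotide kinase, had 89.7 and 73.8 against 61.0 and 69.6. Samd9l, a restriction factor, had 78.1 and 79.3 against 54.7 and 62.3.

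The 3 effectors with overlapping groups were Bst2, Isg20 and Ifi44. Bst2, which encodes the virion tether tetherin, had places 83.1 and 89.7 in HSCs and 79.7 and 84.0 in LSCs. Isg20, an RNA exonuclease, had 79.8 and 62.4 against 57.6 and 62.7, so HSC 1 alone stood apart. Ifi44 had no peak in HSC 1 or in the LSC libraries, and 1 peak of fold 3.31 in HSC 2, with its summit just past the 3′ end of the gene.

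Modifiers and other induced genes stood higher in HSCs for 9 of 10, and held both the highest members and some wide gaps. Their median places were 95.0 and 95.2 in HSCs and 72.1 and 76.9 in LSCs. Usp18, which removes Isg15 from proteins and damps the receptor, had places 99.1 and 96.1 in HSCs and 64.5 and 66.7 in LSCs. Isg15, the ubiquitin-like modifier itself, had 76.7 and 73.7 against 53.5 and 50.2. Its strongest peak was not its own: the HSC summits lay at -2821 and -2818 bp from the start, nearest to Perm1, and the LSC summits lay nearest to Agrn. Over its promoter window Isg15 had a peak in all 4 libraries, with places of 67.6, 66.9, 49.6 and 50.9 among promoters.

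Ifi27 had places 75.9 and 89.2 against 49.4 and 49.0. Its strongest HSC peaks lay nearest to the neighbour Ifi27l2a, and with each peak given to its nearest gene alone Ifi27 stood higher in LSCs. Xaf1, an apoptosis-promoting factor, had 90.8 and 89.0 against 61.4 and 65.6. Rtp4, a receptor chaperone, had 69.7 and 71.2 in HSCs and no peak in the LSC lists, a gap of 69.7 points. A missing peak is given the lowest place, below any gene with a peak. The gap of Rtp4 is therefore not comparable with gaps between called peaks, and neither is that of Ifitm1, at 50.5 points. Among members with a peak in every equal-sized list, Mx1 had the widest gap, at 41.2 points.

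At the top of the gene order the groups differed little. Ifi35 had places 99.9, 99.8, 99.8 and 98.4, and its groups are separated by less than 0.1 points. Trim25, the ubiquitin ligase that acts on RIG-I, had 98.3 and 99.5 against 98.3 and 97.3, and its groups overlapped. Dtx3l and Parp9, partners in a ubiquitin ligase, share 1 strongest peak and had 96.6 and 96.9 against 92.7 and 95.9, a gap of 0.7 points. Parp14 had 93.3 and 94.3 against 79.8 and 87.1. The only secreted member, the chemokine Cxcl10, had 46.5 in HSC 1, no equal-list peak in HSC 2, and 41.5 and 45.6 in LSCs, so its groups overlapped.

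Several members lie side by side, and shared peaks count for more than 1 of them. The windows of Dtx3l and Parp9 overlap, and the shared strongest peak was chr16:35937010-35940327 in HSC 1, with a fold of 62.9, and chr16:35936578-35940327 in LSC 1, with a fold of 208. Oas2 and Oas3, 3.21 kb apart, shared a peak in each HSC library and in neither LSC library, but not the same one. In HSC 1 it was a weak peak between the genes, chr5:120751665-120752092, with a fold of 9.82. In HSC 2 it was the strongest peak of Oas2, chr5:120747782-120751636, with a fold of 73.0. The 2 do not overlap, and the strongest Oas2 peak of HSC 1, chr5:120747709-120750609, did not reach the Oas3 window. The other neighbours shared none: Ifit2 and Ifit3 lie 6.58 kb apart, Ifitm2 and Ifitm1 7.74 kb, Oasl2 and Oasl1 10.9 kb, and Rsad2 and Cmpk2 12.7 kb. The map of both loci shows that the HSC lists also held many weaker peaks between the genes. Member windows held 225 and 222 distinct peaks in HSCs and 66 and 60 in LSCs. That ratio of means, 3.55, was 1.4 in the equal-sized lists. Windows of all protein-coding genes held 80810 and 141195 distinct peaks in HSCs and 31357 and 26505 in LSCs. The larger number of deposited peaks in HSCs was thus not particular to the members.

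**Figure D3:**
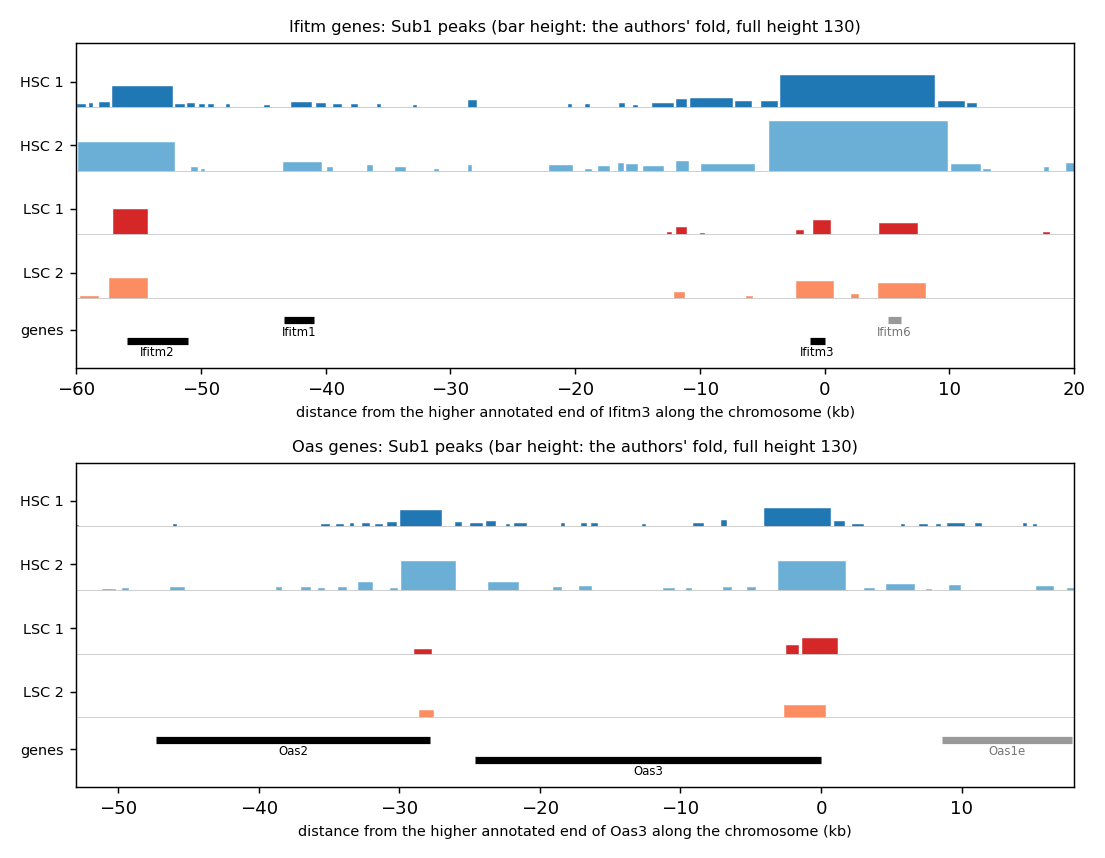
Sub1 peaks along the Ifitm genes (top) and the Oas2 and Oas3 genes (bottom). The x axis is the distance in kb from the higher annotated end of Ifitm3 or Oas3 along the chromosome, each bar is 1 deposited peak, and its height is the authors' fold with a full height of 130. The peak over Ifitm3 is 12414 and 14256 bp wide in the HSC libraries and 1347 and 2917 bp wide in the LSC libraries. Black lines are members and grey lines other protein-coding genes.

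Where RefSeq start windows could be used, the strongest peak of a member lay mostly at the start. Of the 39 members 29 had such a window, as did 17492 protein-coding genes. A peak of the equal-sized lists covered it in 25 members in HSC 1 (46.1% of genes), 27 in HSC 2 (44.5%), 27 in LSC 1 (52.1%) and 26 in LSC 2 (50.1%). In all 4 lists it was covered for 24 members and 41.3% of genes. The strongest summit lay within 1000 bp of a start for 82.1% and 85.2% of members with a peak in HSCs and for 92.6% and 92.3% in LSCs, against 73.2%, 65.6%, 76.3% and 75.0% of genes. The summit of Ifi35 was at the same base in all 4 libraries, 275 bp inside the gene, and that of Bst2 lay 268 to 275 bp before the start. Read on peaks over the promoter windows alone, an alternative added after seeing the data, 22 of 29 members stood higher in HSCs, where 10.5% of genes did. Of these, 20 were among those called on gene windows, Isg20 and Trim25 were added, and Ifit3 and Samd9l no longer stood higher. Cxcl10 stood higher in LSCs, where 12.7% of genes did.

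**Figure D4:**
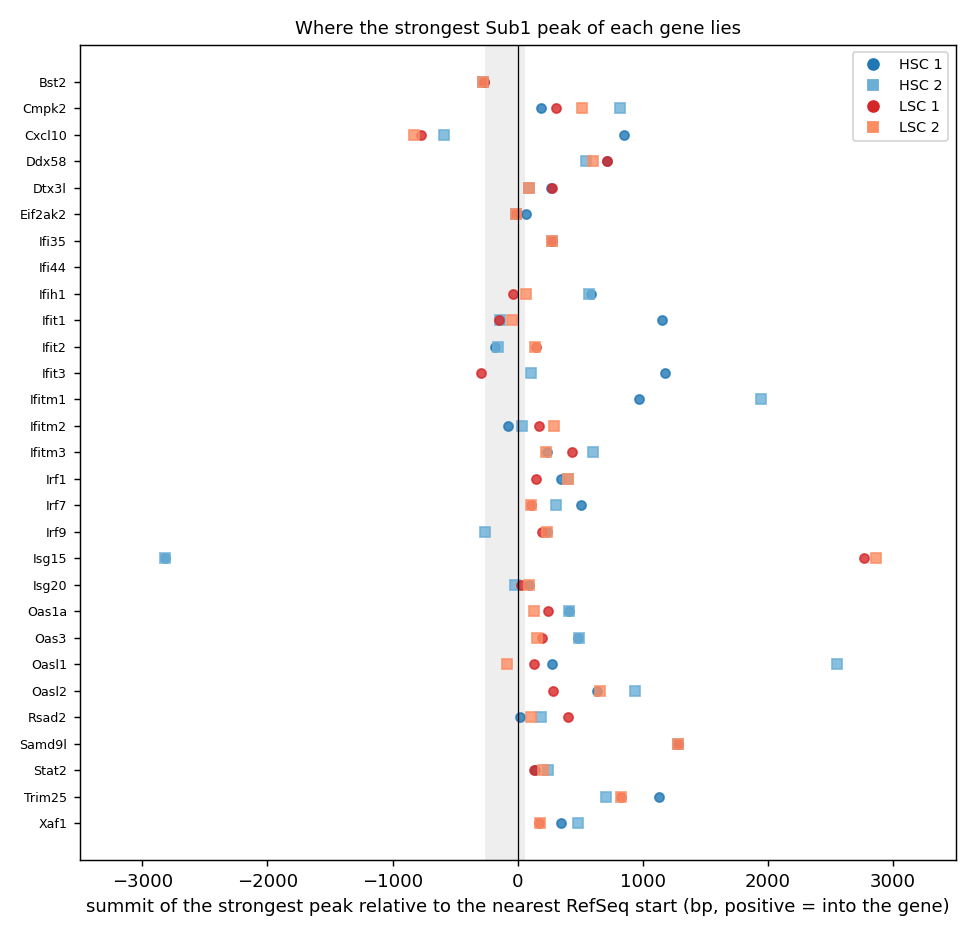
Position of the strongest Sub1 peak in 29 interferon-stimulated genes with a RefSeq start window. The x axis is the distance of the summit from the nearest annotated start in bp, positive into the gene, each mark is 1 library, and the grey band is the promoter window from 250 bases before to 50 after the start. Most marks lie within 1000 bp of the start, Isg15 and Samd9l lie farther out in all 4 libraries, and the Ifi44 summit of HSC 2 lies outside the axis.

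The ISRE core was found in 14 of the 29 promoter windows, against 3.94% of 17492 protein-coding genes. The core of the GAS element, through which interferon gamma acts, searched as TTCNNNGAA, was found in 8 of 29, against 8.92% of genes. The ISRE was covered by a deposited peak in 14 genes in HSC 1, 12 in HSC 2, 14 in LSC 1 and 13 in LSC 2. The same share over all genes with the core was not counted. Peaks of the equal-sized lists already covered 25 to 27 of the 29 member windows. These counts therefore do not set the ISRE apart from the rest of the promoter. Ddx58 and Ifit3 were not covered in HSC 2, nor was Ifit3 in LSC 2. Having the ISRE did not set apart the members that stood higher in HSCs, which were 10 of 14 with it and 12 of 15 without it. Among all genes with a promoter window, 17.9% of those with the core and 13.1% of those without it stood higher in HSCs. A match is a description of the sequence and does not show that a factor binds there.

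The other genes of the pathway were counted in the same way. Of 39 such genes, 10 stood higher in both HSC libraries and 1, Cgas, higher in both LSC libraries, against the 13.2% and 15.5% of all genes given above. The 9 interferon genes had no equal-list peak except Ifnk, the keratinocyte interferon, in 3 libraries. Of 6 receptor genes, Ifnar1, Ifngr2 and Ifnlr1 stood higher in HSCs. Ifnar1, a chain of the type I receptor, had places 72.5 and 83.5 against 61.7 and 55.9, and its partner Ifnar2 had 99.2, 99.2, 99.2 and 97.4. The groups overlapped for the 3 kinase genes Jak1, Jak2 and Tyk2.

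Of 6 further Irf genes, Irf2 and Irf5 stood higher in HSCs, and Irf8, a factor of myeloid cells, overlapped. Of 11 genes of the pathways that induce interferon, Traf3, Tlr9, Myd88 and Ticam1 stood higher in HSCs and Cgas higher in LSCs. Of 4 brakes on the pathway, Socs3 had a wide gap, with places 86.9 and 90.7 against 49.5 and 45.7, while Socs1, Ptpn2 and Ptpn6 overlapped.

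Marker lists of other cells in marrow were read beside these. Monocyte and macrophage genes stood higher in HSCs for 6 of 12 and higher in LSCs for 1, and C1qa and C1qb, which mark macrophages, had no equal-list peak in any library. Plasmacytoid dendritic cells, which make interferon, were represented by 10 genes, of which Il3ra and Spib stood higher in HSCs, and Siglech had no equal-list peak in any library. Bst2 is on that list as well as a member. Of 6 granulocyte-monocyte progenitor genes, Mpo, Elane, Prtn3 and Ctsg stood higher in LSCs and Ms4a3 in HSCs. Genes of B cells stood higher in HSCs for 1 and in LSCs for 3 of 8, those of T and NK cells for 2 and 0 of 10, and erythroid genes for 0 and 2 of 8. The plot of list medians shows that a wide gap in favour of HSCs was shared by the interferon-stimulated genes and the mature neutrophil genes. The 4 brakes also had higher medians in HSCs, at 80.8 and 90.4 against 64.6 and 70.4, though only 1 of them, Socs3, was separated by place.

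**Figure D5:**
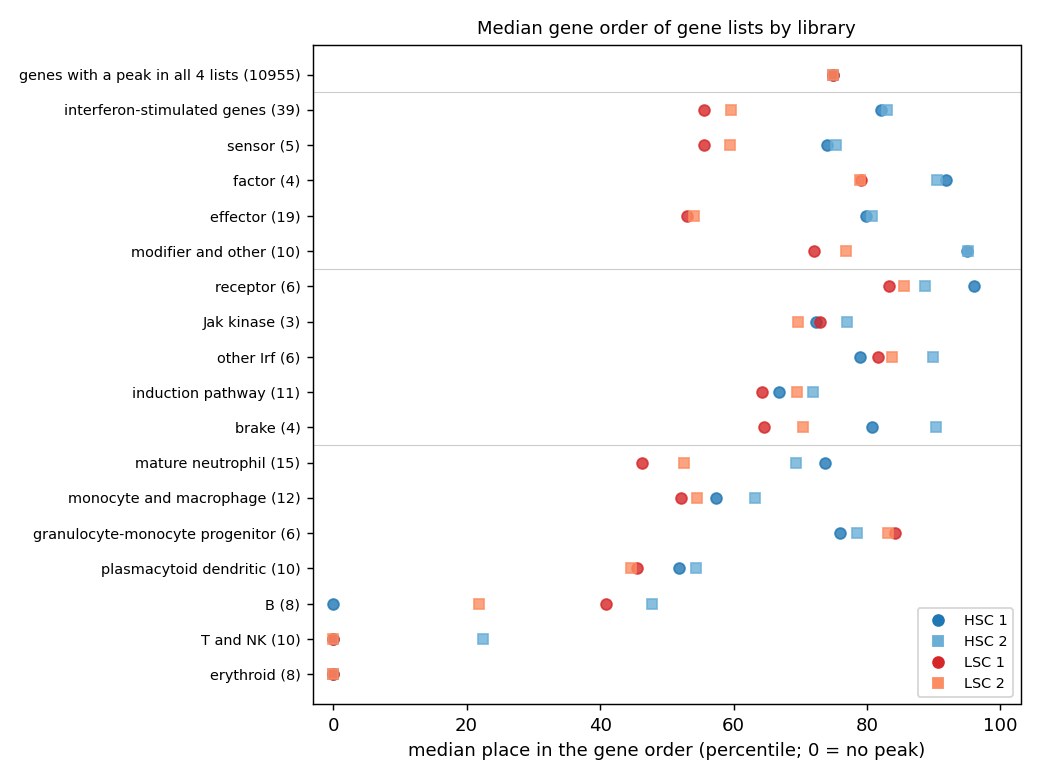
Median place of gene lists in each library. Rows are lists with their number of genes, the x axis is the median percentile in the gene order of the equal-sized lists (0, no peak), and marks are the 4 libraries. The 39 interferon-stimulated genes lie at 82.1 and 83.0 in HSCs and 55.5 and 59.6 in LSCs, the mature neutrophil genes at 73.7 and 69.4 against 46.3 and 52.6, and genes with a peak in all 4 lists at 74.9 in each.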

How the data were processed

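Per the labels, Sub1 CUT&Tag libraries were made with a low-input kit and 17 to 20 PCR cycles. Cell numbers are given for HSCs alone. Per the submitters' processing notes, FastQC 0.11.5, Bowtie2 2.2.9, MACS2 and ChIPseeker were used with mm10. Duplicate handling and any control library are not given in the sources used here. The authors deposited 1 narrowPeak list per library with a score, a fold (ratio of summit signal to background) and both -log10 p and -log10 q per peak. The deposited score is 10 times -log10 q, rounded down, and was not used. Total read depth is unknown. Under the caller's rule of adding 1 to signal and background, all folds under 100 gave whole reads within 0.05, with a background of 3.07, 7.47, 4.54 and 4.5 reads per position in HSC 1, HSC 2, LSC 1 and LSC 2. Peak names carry a prefix that the labels do not explain.

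Genes and promoters came from RefSeq tables of GRCm38.p6. Python 3.11.15, NumPy 2.4.6 and pandas 2.3.3 were used, and joins and places were tested on simulated peaks. Every member is named. No test over the list was run, and counts stand beside the share of all protein-coding genes. The members and lists were chosen with earlier results of these data known. The 10 members without a promoter window were left out of promoter counts. Of the listed pathway genes, 1 is not reported here.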

Additional observations from a re-analysis of the deposited data

How the results depend on the processing

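Of 113 alternatives to the reported counts and ratios, 96 were kept. A count was kept if it was equal to the reported count or within 1.5 times of it. A ratio was kept if it differed by no more than the SD of the ratios over single library pairs. Some alternatives could not differ. With 1 background per library, ordering by fold follows the order by -log10 p. The replicate block does not change how presence is counted. The count of members higher in HSCs was 30 to 35 with all members, and 33 to 35 leaving out 1 library. The 0 members higher in LSCs became 1 for the gene body alone, within 1 kb of a gene end, with the summit inside the window or with each peak given to its nearest gene (Ifi27 each time), and 1 for -log10 q of at least 10 or for promoter windows alone (Cxcl10). It was 0 to 2 leaving out 1 library: Cxcl10 and Eif2ak2 without HSC 1, Stat2 without HSC 2 and Eif2ak2 without LSC 2. With the replicate block, which pairs libraries of the same number, 33 members stood higher in HSCs and 1, Eif2ak2, in LSCs. The labels do not say that the numbers pair libraries, and across 10955 genes, which are not independent, the place differences between numbers 1 and 2 in HSCs and in LSCs had r = 0.31. With 8546 peaks per library 18 members in LSC 1, 22 in LSC 2 and 18 in all 4 libraries kept a peak, and 13 had one in HSCs alone, against 0.991% of genes. Presence in HSCs alone was 4 with nearest genes (Eif2ak2 and Ifit1 added). The ratios of HSC to LSC for distinct peaks and covered length, 3.55 and 2.26, were 1.4 and 1.63 in equal-sized lists. Windows of all protein-coding genes also held more deposited peaks and more covered length in HSCs, as given above. The cause was not tested. With 2 libraries a group, unknown depth and no control library, peak absence means only that none was called.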
